A study of Saccharomyces cerevisiae
Saccharomyces paradoxus with 24 samples.

Results

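The windows described here are the places of Rap1 ChIP-seq signal in front of HSF1 and of 6 yeast chaperone genes. A window counted as upstream when its midpoint lay 0 to 1000 bp before the start of the ORF in the SacCer3 genome. By that rule 3 of 1118 windows belonged to the 7 genes, with 1 window each for HSF1, SSB1 and SSA1. The other 4 genes, SSB2, SSA2, HSC82 and HSP82, had no upstream window, which says only that no window of the table lies there.

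Rap1 is a DNA-binding protein of Saccharomyces cerevisiae that activates ribosomal protein and glycolytic genes and also binds telomeres and silencers. Hsf1 is the transcription factor of the heat shock response, and it drives many chaperone genes through heat shock elements in their promoters. The chaperones are the Hsp70 proteins Ssb1 and Ssb2, which sit on ribosomes and fold new chains, the general cytosolic Hsp70 proteins Ssa1 and Ssa2, and the Hsp90 proteins Hsc82 and Hsp82. Each pair is encoded by close paralogs, so reads inside their ORFs can resemble each other.

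Rap1 was removed from the nucleus by anchor-away, in which rapamycin joins an FRB tag on Rap1 to an FKBP12 tag on a ribosomal protein that leaves the nucleus. Cells were exposed to 7.5 µM rapamycin for 5, 10, 15, 20, 30, 45 or 60 min, or given DMSO as the 0 min sample, for which the labels give 60 min. Rap1 was precipitated through its V5 tag in 2 strain isolates, JRy15237 (replicate 1) and JRy15238 (replicate 2), at all 8 times. This gave 16 ChIP libraries, to which 2 input libraries of the 0 min chromatin, 1 from each isolate, were added. All these cells, the 0 min cells included, carried Rap1(134)-FRB_2xV5 and, as the anchor, RPL13A-2xFKBP12::TRP1, together with fpr1::NAT and the rapamycin-resistant TOR1(S1972I). They also carried bar1delta::k.l.URA3, an HML with SNPs (hmlalphadelta::UniqueHMLwithSNPs) and hmrdelta::HygMX, with the markers leu2 (alleles 3 and 112) and his3 (alleles 11 and 15) beside trp1-1, ura3, can1-100 and lys2. The spike-in of every sample came from Saccharomyces paradoxus cells with V5-tagged Rap1 that had not met rapamycin. Signal below means reads in a window of 301 bp per 1000000 S. paradoxus reads of the same library.

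Depth ran from 4397759 to 9219038 S. paradoxus reads over the ChIP libraries, with 1201827 to 3401521 reads inside the windows. Replicate 1 at 30 min had the fewest of both. The HSF1 window held 170 to 2696 reads in a library, the SSB1 window 601 to 1724 and the SSA1 window 59 to 642. A count of 59 has a counting error of 13%, so the late values of the SSA1 window were the least precise. At 0 min the median window had a signal of 96.7 in replicate 1 and 142 in replicate 2. A shift shared by all windows made up 94.0% of the squared log2 difference between the replicates at 0 min, 91.9% at 5 min, 80.5% at 10 min, 46.8% at 15 min, 0.24% at 20 min, 6.14% at 30 min, 8.70% at 45 min and 88.2% at 60 min. The windows themselves were defined by the authors on the 0 min ChIP libraries against an untagged control. The tests against 0 min take the same 0 min libraries as their reference, so the choice of windows favoured a fall. Their p-values are therefore no independent support for a fall.

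The HSF1 window covered chrVII:368372-368672 of SacCer3. It lay between ORFs, with its midpoint 231 bp upstream of HSF1 (YGL073W) and 434 bp upstream of MPS2 (YGL075C), a spindle pole body gene transcribed the other way. Its signal can therefore not be assigned to HSF1 alone. The SSB1 window covered chrIV:43630-43930, with its midpoint 285 bp upstream of SSB1 (YDL229W), and 78 bp of it overlapped the 3′ end of PTP1 (YDL230W), a tyrosine phosphatase gene on the same strand. The SSA1 window covered chrI:141679-141979, between SSA1 (YAL005C) and EFB1 (YAL003W), which run in opposite directions. EFB1 encodes a subunit of the translation elongation factor that reloads eEF1A with GTP. The midpoint was 398 bp upstream of SSA1 and 345 bp upstream of EFB1. It was also 538 bp upstream of SNR18, a snoRNA gene that lies inside EFB1. The window is called the SSA1 and EFB1 window from here on.

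**Figure D1:**
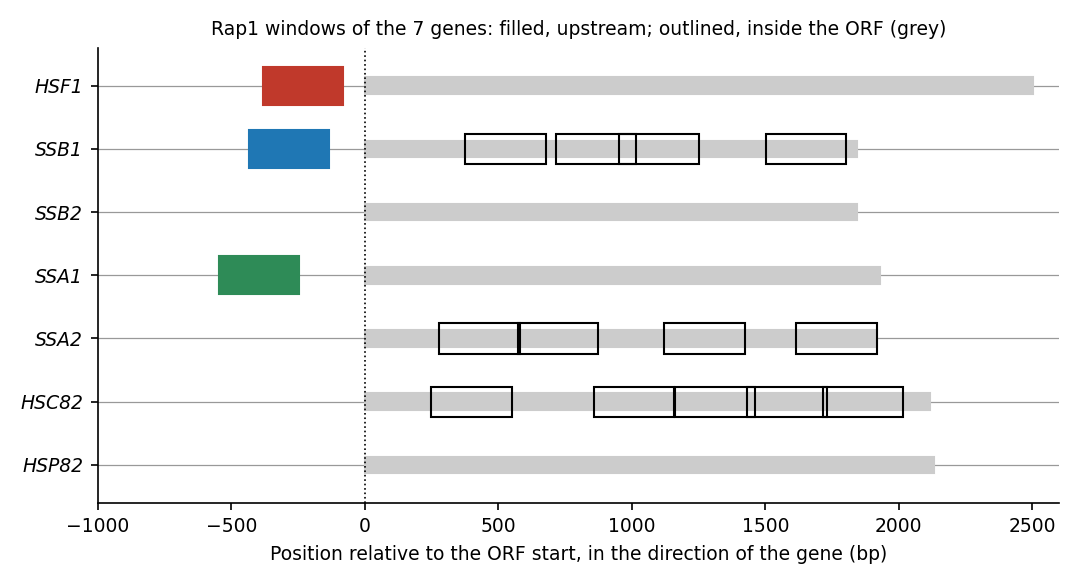
Position of the windows of the table around the start of each of the 7 ORFs, in bp along the gene (grey bars are ORFs, filled boxes upstream windows and outlined boxes windows with the midpoint inside the ORF). HSF1, SSB1 and SSA1 had 1 upstream window each, SSB1, SSA2 and HSC82 had 13 windows inside their ORFs, and SSB2 and HSP82 had none in this range.

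The upstream window furthest from its ORF was that of SSA1, at 398 bp, so the distance of 1000 bp did not decide the choice. The nearest windows beyond it were 1559 bp upstream of SSA1, inside the EFB1 ORF, and 2499 bp upstream of HSF1, in front of the ribosomal protein gene RPL7A. The window in EFB1 had 15.5% of its 0 min signal left at 60 min and the one in front of RPL7A had 32.1%. For SSB2, SSA2, HSC82 and HSP82 the nearest window further upstream was 21674, 50255, 5898 and 16108 bp away.

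Before depletion the HSF1 window carried the most Rap1 of the 3. At 0 min its signal was 368 in the ChIP of replicate 1, against 190 in the input, and 443 in the ChIP of replicate 2, against 448 in the input. The SSB1 window had 235 in the ChIP and 220 in the input of replicate 1, and 289 in the ChIP and 464 in the input of replicate 2. The SSA1 and EFB1 window had 68.4 in the ChIP and 265 in the input of replicate 1, and 127 in the ChIP and 551 in the input of replicate 2. In signal the HSF1 window stood 252nd, the SSB1 window 317th and the SSA1 and EFB1 window 752nd of the 1118 windows.

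Each library is scaled to its own S. paradoxus reads, and the spike-in cells also carry tagged Rap1, so a ratio of 1 between ChIP and input is no baseline. The ratio is read here against that of the median window, which was 0.532 in replicate 1 and 0.359 in replicate 2. At the HSF1 window the ratio was 3.65 times that of the median window in replicate 1 and 2.75 times in replicate 2. At the SSB1 window it was 2.02 times and 1.74 times. At the SSA1 and EFB1 window it was 0.486 times and 0.640 times, and only 5.99% of all windows had a lower mean ratio. The input values rest on 152 to 214 reads. Both replicates thus placed HSF1 above SSB1, and the window shared by SSA1 and EFB1 below the median window.

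The HSF1 window lost nearly all of its Rap1 signal in rapamycin. In replicate 1 its signal was 368 at 0 min, 327 at 5 min, 177 at 10 min, 80.3 at 15 min, 48.4 at 20 min, 38.7 at 30 min, 34.1 at 45 min and 26 at 60 min. In replicate 2 it was 443, 391, 196, 74.6, 46.5, 47.9, 31.9 and 32.9 at the same times. From 10 min on every library lay below both 0 min libraries by more than the 2 replicates differed from each other. At 60 min 7.26% ± 0.25 (SD, n = 2) of the 0 min signal was left. The fall was 1.11 on the log2(signal + 1) scale at 10 min (SE 0.27, adjusted p = 9.36e-05, limma), and the log2 change was -2.37 at 15 min and -3.74 at 60 min, a 13.4-fold lower signal.

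The SSB1 window kept much more of its Rap1. In replicate 1 its signal was 235 at 0 min, 264 at 5 min, 184 at 10 min, 157 at 15 min, 149 at 20 min, 137 at 30 min, 107 at 45 min and 84.6 at 60 min. In replicate 2 it was 289, 338, 241, 161, 141, 119, 101 and 119 at the same times. Both replicates were above their own 0 min value at 5 min, by 1.12 times and 1.17 times, but this difference did not pass the test (log2 change 0.19, SE 0.27). From 15 min on every library lay below both 0 min libraries. At 60 min 38.5% ± 3.7 (SD, n = 2) of the 0 min signal was left.

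In limma the SSB1 window did not pass at 10 min (log2 change -0.31, adjusted p = 0.302) and passed from 15 min on (log2 change -0.71, adjusted p = 0.0105), to a log2 change of -1.37 at 60 min (adjusted p = 5.89e-07). The call at 15 min was lost without replicate 1 at 15 min (adjusted p = 0.0544) or without replicate 2 at 0 min (adjusted p = 0.0786). Scaled to the total over all windows of a library in place of the spike-in, the SSB1 window did not fall relative to that total. Its log2 change at 60 min was then 0.00 (adjusted p = 0.997). At 15 and 20 min it was 0.32 and 0.34, which passed as higher, beside 11.9% and 13.2% of all windows. That scaling sets the total of all windows equal in every library, so a loss shared by all windows is taken out. It moved the median log2 change of all windows at 60 min up by 1.33, to -1.06. The scaled values therefore cannot tell whether the SSB1 window fell against the spike-in. Under that scaling the HSF1 window (log2 change -2.38) and the SSA1 and EFB1 window (log2 change -1.62) were still lower at 60 min, beside 77.1% of all windows.

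The SSA1 and EFB1 window lost most of its weak signal within 15 min. In replicate 1 the signal was 68.4 at 0 min, 64.7 at 5 min, 28.1 at 10 min, 16 at 15 min, 13.2 at 20 min, 13.4 at 30 min, 14.3 at 45 min and 8.87 at 60 min. In replicate 2 it was 127, 78.7, 37.0, 18.5, 13.1, 18.0, 16.3 and 14.1 at the same times. The replicates differed most at 0 min, and all libraries from 10 min on lay below both of their 0 min values. At 60 min 12.0% ± 1.3 (SD, n = 2) was left, with a log2 change of -1.50 at 10 min (adjusted p = 1.35e-07, limma) and of -2.95 at 60 min (adjusted p = 2.14e-26). Between 20 and 45 min the level hardly moved, at 13.1 to 18.0 in all 6 libraries.

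**Figure D2:**
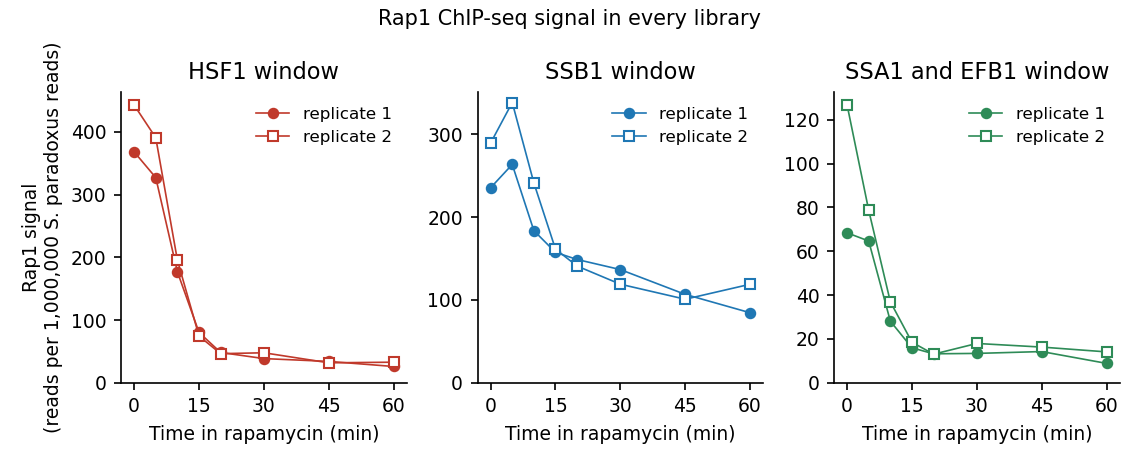
Rap1 signal (reads per 1000000 S. paradoxus reads, linear axis from 0) against time in rapamycin (min) at the 3 windows, with filled circles for replicate 1 and open squares for replicate 2. The HSF1 window is at 48.4 and 46.5 by 20 min, whereas the SSB1 window is still at 149 and 141, and the SSA1 and EFB1 window is at 13.2 and 13.1.

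A fall by itself set none of the 3 windows apart from the rest of the genome. At 5 min 0 of the 3 had fallen by limma, also at an unadjusted p under 0.05, beside 0% of all windows. At 10 min the HSF1 window and the SSA1 and EFB1 window were lower, 2 of 3 beside 73.1% of all windows. At 15, 20, 30, 45 and 60 min all 3 were lower, beside 94.3%, 94.3%, 94.8%, 95.1% and 96% of all windows. How many of all windows also lay below both of their 0 min values in every later library is not given here. In the same test 0% of all windows were higher at 60 min. The windows were chosen on the 0 min libraries that serve as the reference here, which favoured a fall in advance. The SE was 0.27 at every window because limma pooled the spread over the windows, so the very small p-values do not measure how well 2 replicates repeat.

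The size of the fall did differ. The median of all windows was 49.2% of the 0 min signal at 10 min, 25.5% at 15 min, 21.0% at 20 min and 18.1% at 60 min. The HSF1 window had 46.1% left at 10 min, 19.3% at 15 min, 11.8% at 20 min and 7.26% at 60 min. The SSB1 window had 80.7%, 61.3%, 56.0% and 38.5% at these times, and the SSA1 and EFB1 window 35.1%, 19.0%, 14.8% and 12.0%. At 60 min 40 of the 1118 windows had fallen more than the HSF1 window, 206 more than the SSA1 and EFB1 window, and 931 more than the SSB1 window. Among 226 windows within 300 bp upstream of a protein-coding ORF and without a tRNA gene, whose median was 17.6%, these numbers were 28, 79 and 181.

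**Figure D3:**
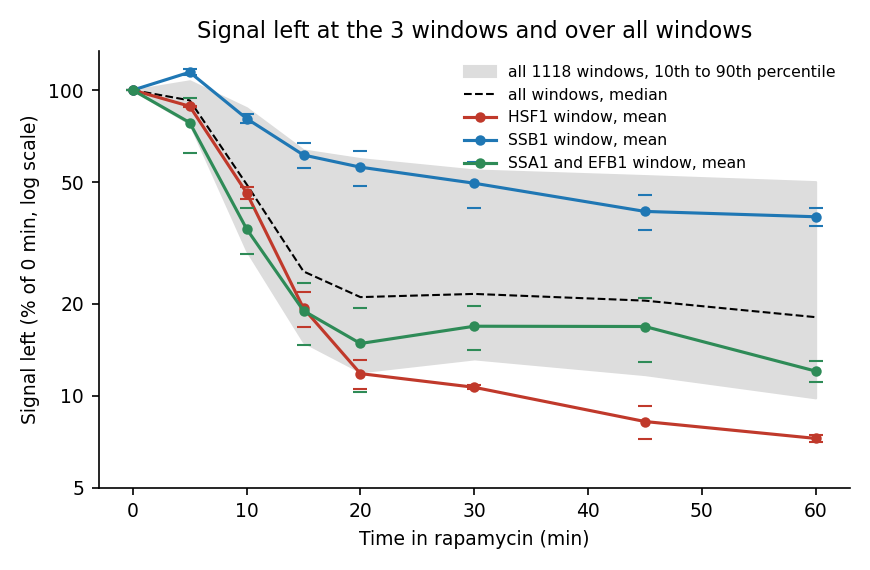
Signal left (% of the same replicate's 0 min value, log axis) against time in rapamycin (min) at the 3 windows, with lines for the mean of 2 replicates and dashes for each replicate. Grey marks the 10th to 90th percentile of all 1118 windows and the broken line their median. At 60 min the HSF1 window (7.26%) is below the 10th percentile (9.85%), and the SSB1 window (38.5%) is between the median (18.1%) and the 90th percentile (50.2%). Scaled to the total over all windows, which takes out the change of that sum, the SSB1 window did not fall relative to that total.

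Whether a window lost more or less than the middle of the genome was tested within each library, relative to its median window, so that the spike-in factor cancelled. The median of all windows moved by 0.21 on this log2 scale at 10 min and by 0.13 at 60 min. The change of the HSF1 window did not differ detectably from that of the median window at 5, 10 and 15 min (log2 difference -0.00, 0.11 and -0.23, SE 0.13, adjusted p = 0.988, 0.467 and 0.117). The HSF1 window then lost more than the median window, with a log2 change of -0.66 at 20 min (adjusted p = 0.000106), -0.91 at 30 min, -1.22 at 45 min and -1.21 at 60 min (adjusted p = 1.68e-08). In level it was 1.63 and 1.39 times the median window at 60 min, in replicates 1 and 2, against 3.81 and 3.12 times at 0 min. The call at 15 min turned on single libraries, since the window passed as lower without replicate 1 at 15 min (adjusted p = 0.0424), without replicate 2 at 0 min (adjusted p = 0.0461) or with a pseudocount of 5 (adjusted p = 0.0157). The early likeness also depended on what stood for the middle. Centred on the median of the 226 windows close upstream of an ORF, an alternative chosen after seeing the data, the HSF1 window was already lower at 10 min (log2 change -0.52, adjusted p = 0.00302). Its log2 changes were then -0.91 at 15 min and -1.29 at 20 min. Against the total over all windows its log2 change at 10 min was -0.66, where the median of all windows was itself -0.56.

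The SSB1 window moved the other way. Relative to the median window its log2 change was 0.36 at 5 min (SE 0.12, adjusted p = 0.117), 0.91 at 10 min (adjusted p = 3.75e-07), 1.56 at 20 min and 1.16 at 60 min (adjusted p = 4.05e-09). In level it was 5.28 and 5.03 times the median window at 60 min, against 2.43 and 2.04 times at 0 min. Centred on the windows close upstream of an ORF, its log2 change was 0.29 at 10 min (adjusted p = 0.05, at the threshold), 0.93 at 20 min (adjusted p = 1.04e-05) and 1.34 at 60 min. Set against the total over all windows in place of the median window, its log2 change was 0.00 at 60 min (adjusted p = 0.997). It was 0.0913 at 30 min, -0.0353 at 45 min and 0.15 at 10 min (adjusted p = 0.278), and none of these passed. Against that total the median of all windows was -1.06 at 60 min, so the SSB1 window still lay above the middle of the windows.

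The change of the SSA1 and EFB1 window stayed within a log2 difference of 0.42 of the change of the median window. In level the window was 0.554 and 0.596 times the median window at 60 min, against 0.707 and 0.894 times at 0 min. Its log2 change relative to the median window ran from -0.42 to -0.18 over the 7 rapamycin times, with an SE of 0.13. It passed the test at 20 min (log2 change -0.33, adjusted p = 0.0234) and at 60 min (log2 change -0.42, adjusted p = 0.00559) but not at the other 5 times. The call at 60 min was lost without replicate 2 at 0 min (log2 change -0.25, adjusted p = 0.153), and also when centred on the windows close upstream of an ORF (log2 change -0.23, adjusted p = 0.108). With that centring the window was lower at 10 min (log2 change -0.90, adjusted p = 1.78e-05), 15 min (log2 change -0.91, adjusted p = 1.11e-05) and 20 min (log2 change -0.96, adjusted p = 5.84e-06), further below than relative to the median window. The call at 20 min was lost without replicate 2 at 0 min (adjusted p = 0.339) and without either 20 min library (adjusted p = 0.0731 and 0.0765) or with a pseudocount of 5 (adjusted p = 0.0739). Without replicate 1 at 0 min the window also passed at 10, 15 and 30 min (adjusted p = 0.0161, 0.0253 and 0.0367), and without replicate 2 at 30 min it passed at 30 min (adjusted p = 0.0246). Centred on the total over all windows it was lower at every time from 10 min on, with log2 changes of -1.62 to -1.05. At these times 727 to 911 of all 1118 windows were lower by that centring, with a median log2 change of -1.08 to -0.56. With the isolate as a block the window also passed at 10 min (adjusted p = 0.0358, against 0.0538 without it).

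At 60 min 2 of the 3 windows were lower relative to the median window, beside 26.7% of all windows, and 1 was higher, beside 43.5%. At 10 and 15 min the SSB1 window was the only one of the 3 that passed, as higher, beside 45.7% and 47% of all windows. At 20, 30 and 45 min it was higher beside 46.1%, 40% and 39.8% of all windows. Lower at these times were 2, 1 and 1 of the 3, beside 28.1%, 20.5% and 23.8%.

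**Figure D4:**
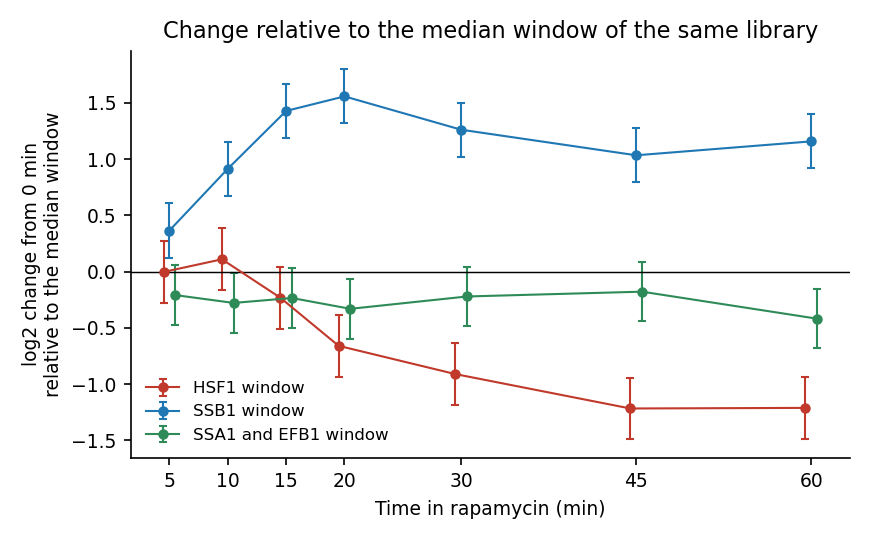
Log2 change from 0 min relative to the median window of the same library, against time in rapamycin (min), with 95% intervals from limma for the HSF1, SSB1 and SSA1 and EFB1 windows (points are shifted slightly sideways to keep them apart). The HSF1 window leaves the 0 line after 15 min and reaches -1.21 at 60 min, the SSB1 window reaches 1.56 at 20 min and 1.16 at 60 min, and the SSA1 and EFB1 window stays between -0.42 and -0.18. Set against the total over all windows, the SSB1 value at 60 min was 0.00, where the median of all windows was -1.06. Centred on the windows close upstream of an ORF the SSA1 and EFB1 value at 20 min was -0.96.

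Compared directly within the same libraries, the windows parted at different times. The signal of the HSF1 window was 1.56 and 1.53 times that of the SSB1 window at 0 min, 1.24 and 1.15 times at 5 min, 0.964 and 0.811 times at 10 min and 0.308 and 0.277 times at 60 min. At 15 min the ratio was 0.510 and 0.462, so the order of the pair was turned round by then in both isolates. At 10 min replicate 1 had 1592 reads in the HSF1 window and 1652 in the SSB1 window, too close to give the order. The SSB1 window differed from the HSF1 window from 10 min on (log2 difference in change 0.80, SE 0.18, adjusted p = 0.000424), up to 2.37 at 60 min (adjusted p = 4.73e-15). Of the 1117 windows tested, 30.9% were likewise higher relative to the HSF1 window at 10 min, 50% at 15 min, 69.9% at 20 min and 91.7% at 60 min, so this direction was the common one.

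The SSA1 and EFB1 window did not differ detectably from the HSF1 window up to 20 min, when the log2 difference in change was 0.33 (95% interval -0.06 to 0.72, adjusted p = 0.119). From 30 min on it had fallen less than the HSF1 window, with a log2 difference of 0.69 at 30 min (SE 0.19, adjusted p = 0.00122), 1.04 at 45 min and 0.79 at 60 min (adjusted p = 0.000233), beside 88.5%, 92.5% and 91.7% of windows. In level it was 0.340 and 0.429 times the HSF1 window at 60 min, against 0.186 and 0.286 times at 0 min. The call at 30 min was lost without replicate 1 at 0 min (log2 difference 0.38, adjusted p = 0.104), and without replicate 2 at 0 min the windows already differed at 20 min (log2 difference 0.64, adjusted p = 0.0093), as they did with a pseudocount of 5 (adjusted p = 0.00438). At 10 min the replicate block (adjusted p = 0.0328) and leaving out replicate 1 at 0 min (adjusted p = 0.0114) placed the change of the SSA1 and EFB1 window below that of the HSF1 window.

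An exponential decay with a start, a plateau and a rate was fitted to each window and replicate. The rates of both replicates, averaged on the log scale and inverted, gave the apparent residence time. It was 11.0 min at the HSF1 window (SE 2.1, 11.4 and 10.6 min in replicates 1 and 2), 21.2 min at the SSB1 window (SE 7.9, 26.4 and 17.1 min) and 8.27 min at the SSA1 and EFB1 window (SE 1.56, 9.97 and 6.86 min). The median of the 1056 windows that could be fitted in both replicates was 9.59 min. The residence times at HSF1 and SSB1 could not be told apart in the fit to all 8 times with a free plateau, at a ratio of SSB1 to HSF1 of 1.93 with an approximate 95% interval of 0.806 to 4.64. With the plateau fixed at 0 the ratio was 3.69 (2.46 to 5.54), and without the 0 min library, again with a free plateau, it was 1.60 (1.11 to 2.30), and these intervals lie above 1. All SEs and intervals of residence times and their ratios come from the errors of the fits along each time course. They do not measure the spread between the isolates.

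The fitted plateaus lay further apart than the residence times. The plateau was 3.35% and 2.95% of the 0 min signal at the HSF1 window, 29.2% and 30.8% at the SSB1 window and 12.8% and 9.89% at the SSA1 and EFB1 window, without overlap between windows in the 2 replicates. No error is given for the plateaus. Each lay below the signal left at 60 min, which at the SSB1 window was 35.9% and 41.1%. The ratio of the residence times of the SSA1 and EFB1 window to the HSF1 window was 0.754 (0.431 to 1.32), an interval that holds 1. It was 0.710 (0.562 to 0.898) without the 0 min library and 0.532 (0.318 to 0.890) when scaled to the total, and both of these intervals lie below 1. The ratio of SSB1 to the SSA1 and EFB1 window was 2.56 (1.07 to 6.13).

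Inside the ORFs of the 7 genes lay 13 further windows, which the upstream rule does not include: 4 in SSB1, 4 in SSA2 and 5 in HSC82. They were weak. Their mean signal at 0 min was 25.0 to 107 (median 69.3), against 119 for the median of all windows, and their ChIP to input ratio was 0.244 to 0.457. Overlapping windows in SSB1, SSA2 and HSC82 share reads and are not separate measurements.

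All 13 windows inside ORFs were lower at 10 min, beside 73.1% of all windows, and at 60 min, beside 96%, when 14.1% to 38.4% (median 19.6%) of their 0 min signal was left. Under the scaling to the total, 11 of the 13 were lower at 60 min, beside 77.1% of all windows, and 2 of SSB1 were not. Relative to the median window, 6 of 13 were higher at 60 min and none was lower, beside 43.5% of all windows higher and 26.7% lower. The 6 were all 4 windows in SSB1 and 2 of the 5 in HSC82. These 2 windows in HSC82 overlap each other and had mean signals of only 29.0 and 25.0 at 0 min. In replicate 1 the weaker one kept 15.3% at 60 min, below the 18.1% of the median window in that replicate. In SSB1 the windows inside the ORF kept 26.3% to 38.4%, whereas those in SSA2 kept 14.1% to 19.6%. At the SSB1 gene the window 526 bp into the ORF had 19.0 and 27.9 at 60 min, against 53.3 and 85.3 at 0 min, so it was weaker than the upstream window of SSB1 (84.6 and 119 at 60 min) in each isolate.

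**Figure D5:**
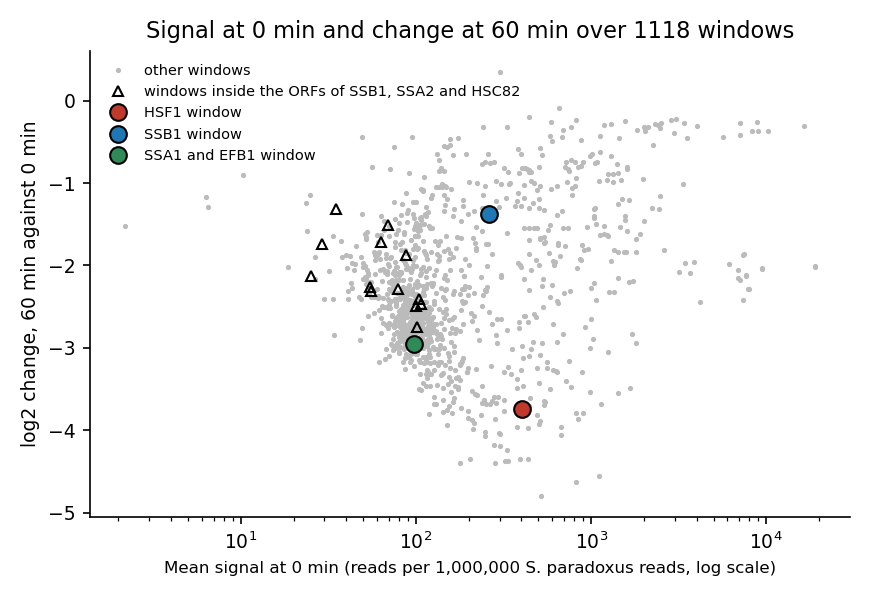
Log2 change at 60 min against 0 min, from limma, plotted over the mean 0 min signal (reads per 1000000 S. paradoxus reads, log axis) for all 1118 windows, with the 3 upstream windows as large circles and the 13 windows inside the ORFs of SSB1, SSA2 and HSC82 as triangles. The HSF1 window (-3.74) is near the lower edge of the cloud, the SSB1 window (-1.37) in its upper part and the SSA1 and EFB1 window (-2.95) in the dense part at low signal. With the scaling to the total, which takes out the change of that sum, the SSB1 change was 0.00 and the median of all windows was -1.06.

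The other chaperone and heat shock genes were followed through a list of 59 genes, of which 9 had an upstream window, in 8 windows. All 8 windows were lower at 60 min, beside 96% of all windows, and 5 were lower at 10 min, beside 73.1%. Their median log2 change at 60 min was -2.93, against -2.40 over all windows. Relative to the median window 5 were lower, beside 26.7%, and 2 were higher, beside 43.5%. The range was wide, with 6.44% to 57% of the 0 min signal left at 60 min.

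The strongest window of the list was that in front of CCT6, a subunit of the TRiC chaperonin, which it shares with SND1. It had 341 and 423 at 60 min, against 1024 and 1333 at 0 min (log2 change -1.62, adjusted p = 3.81e-09), and did not pass when scaled to the total (log2 change -0.24, adjusted p = 0.104). The window shared by MDJ1, a mitochondrial Hsp40, and HSP12, a small heat shock protein, had 346 and 459 at 60 min, against 614 and 795 at 0 min (log2 change -0.81, adjusted p = 0.00318), and was higher when scaled to the total (log2 change 0.57), beside 11.6% of all windows. These 2 windows were the ones that fell less than the median window, as the SSB1 window did.

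The window of UBI4, the polyubiquitin gene, had 33.7 and 51.4 at 60 min, against 449 and 629 at 0 min (log2 change -3.64), with 7.84% left. The window of SGT1, an Hsp90 co-chaperone, which it shares with NOB1, had 34.1 and 48.7 at 60 min, against 201 and 273 at 0 min (log2 change -2.49). Its change did not differ detectably from that of the median window (adjusted p = 0.773). HSP78, a mitochondrial disaggregase, and MSN4, a stress transcription factor, were named after their values were seen, with 6.44% and 8.20% left. The windows of SBA1 and SGT2 hold a tRNA gene.

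The windows most like each of the 3 were found by the root mean square difference in log2 change over the 14 rapamycin libraries, among 1074 windows with a 0 min signal of at least 50. A shift of a whole library cancels between windows of the same libraries but stays between replicates. The replicate values below are therefore no yardstick for likeness, and the nearest windows have the smallest difference by choice. Nearest to the HSF1 window were those upstream of VEL1 (0.133), of YCG1 and UTP4 (0.143) and of NSR1 (0.144), against 0.236 between its own replicates. UTP4 and NSR1 act in ribosome biogenesis, and YCG1 encodes a condensin subunit. Nearest to the SSB1 window were those upstream of YDL186W and PPH22 (0.0889), of RPL36A (0.155) and of RPL1B and MRM2 (0.166), against 0.304 between its own replicates. RPL36A and RPL1B encode ribosomal proteins, and PPH22 a catalytic subunit of protein phosphatase 2A.

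Nearest to the SSA1 and EFB1 window were 2 windows over tRNA genes, upstream of SDH9 (0.155) and YIL102C (0.155), and one at ENO2 and CTR2 (0.162), against 0.617 between its own replicates. Its median difference from all windows was 0.605. Among the 3 windows the difference was 1.85 for HSF1 and SSB1, 1.45 for SSB1 and SSA1 and 0.637 for HSF1 and SSA1. The last value was near the median difference of the SSA1 and EFB1 window from all windows (0.605). It was below the median difference of the HSF1 window from all windows (0.911). All points share the same libraries and the same 0 min values, so these numbers are a description without a test.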

How the data were processed

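Rap1 ChIP-seq signal of 16 libraries and 2 inputs was used. The authors aligned reads with Bowtie2 to a joined S. paradoxus and customized SacCer3 genome, called MACS summits on the 0 min libraries and counted reads 150 bp on either side. The deposited signal is those reads per 1000000 S. paradoxus reads, and the deposited S. paradoxus counts leave out the rDNA. The labels also name CASAVA 2.2 and SAMtools. How reads with several alignments were treated is not given in the sources used here. A line without a window and 14 columns of other inputs were left out, and 6 labelled samples have no values here. No count test was run.

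Windows were assigned to ORFs by the R64 annotation in RefSeq, where all 7 genes and all 59 list genes were found. Every rapamycin time was set against 0 min with limma 3.58.1 (R 4.3.3). The fit used log2(signal + 1) of the 16 ChIP libraries and a factor for time, 2-sided, with Benjamini-Hochberg adjustment over 1118 windows (1117 relative to HSF1) and a threshold of 0.05. The pseudocount makes falls at weak windows look smaller. The same fit was run relative to the library's median window and to the HSF1 window. Decays were fitted with nls and SSasymp. The fits were tested on simulated data, and other steps used Python 3.11.15. Same-numbered libraries come from the same isolate, so the numbers pair them, and the correlation of their deviations over 28 pairs of times ran from -0.21 to 0.41 (median 0.17). Separate cultures are not stated beyond the isolates, so p-values measure the spread between these libraries. Named are the windows of the 7 genes with every gene they overlap or precede by at most 1000 bp, the 3 windows most like each, and up to 5 list genes of the highest signal. The members, lists and tests were chosen with earlier results of these data known. No genome sequence was used, so sequences and motif searches are not given. Errors of read numbers cover counting only.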

Additional observations from a re-analysis of the deposited data

How the results depend on the processing

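The falls of the HSF1 window and of the SSA1 and EFB1 window against 0 min kept their direction and call from 10 min on under every alternative run: pseudocounts of 0.1 and 5, the replicate block, a 0 min signal of at least 50, scaling to the total over all windows and leaving out each library. Under the scaling to the total the SSB1 window did not pass as lower, with log2 changes of 0.32 at 15 min, 0.34 at 20 min, 0.0913 at 30 min, -0.0353 at 45 min and 0.000435 at 60 min. That scaling takes out the change of the total, so it cannot test the fall of the SSB1 window against the spike-in. The number of the 3 windows that changed relative to the median window at 10 min was 1. It was 2 with the replicate block (isolates as pairs), 2 over windows of at least 50 at 0 min, 2 centred on the total, 3 centred on the windows close upstream of an ORF, and 1 to 2 when a library was left out. At 15 min that number was 1. It was 2 with a pseudocount of 5, 3 centred on the total, 3 centred on the windows close upstream of an ORF and 1 to 2 when a library was left out. The last centring was chosen after seeing the data. Centred on the total, 727 of all 1118 windows were lower and 80 higher at 10 min, and 811 were lower and 133 higher at 15 min. The HSF1 window at 10 min had a log2 change of -0.66 centred on the total, where the median of all windows was itself -0.56. Centred on the windows close upstream of an ORF, the HSF1 window turned to -0.52. Of the 2 windows compared with the HSF1 window, 1 differed at 10 min, 2 with the replicate block. At 20 min 1 differed, and 2 with a pseudocount of 5. Leaving out a library gave 1 to 2 at 10, 20 and 30 min. The shares of all windows under the other settings are not given here for these times, so these numbers show no trait of the 3 windows. With the plateau fixed at 0 the residence times were 11.7 min (HSF1), 43.3 min (SSB1) and 11.2 min (SSA1 and EFB1), and without the 0 min library 5.91, 9.44 and 4.20 min. Scaled to the total it was 13.3 min at HSF1, and SSB1 could not be fitted. The cause of these differences was not tested. The replicate block changed no other call of the 3 windows. With 2 libraries a time, and a shift shared by the windows at 0, 5, 10 and 60 min, limma's adjusted p-values leave out the dependence between windows, and the few late reads of the SSA1 and EFB1 window limit its values most.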
